A study of Mus musculus with 7 samples.

Results

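The genes described here are 8 genes of the integrated stress response and the unfolded protein response, Atf4, Ddit3, Trib3, Chac1, Asns, Hspa5, Hsp90b1 and Xbp1, taken by symbol from the 22556 genes of the count tables. The libraries were chromatin-associated RNA sequencing (ChrRNA-seq, RNA that stays with chromatin and is rich in unspliced transcripts) from undifferentiated female mouse embryonic stem cells (mESCs) grown in serum and LIF on mitomycin-inactivated feeder cells that were removed by pre-plating. Both lines derive from an F1 hybrid with 1 chromosome set of the 129 strain (Dom) and 1 of CAST/EiJ (Cast). Xist, the RNA that silences an X chromosome, is driven here by a TetOn promoter that doxycycline switches on. That promoter is on the Dom X in iXist-ChrX-Dom (4 libraries) and on the Cast X in iXist-ChrX-Cast (3 libraries). By their titles and treatment labels all libraries were made after 10 days with 1 µg/mL doxycycline. No uninduced library was analysed here, so neither the effect of doxycycline nor that of Xist on these genes can be read from the data, and differences between the lines are differences between derived lines as well as between the X chromosomes that carry the promoter.

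The integrated stress response begins with kinases that phosphorylate eIF2α when amino acids are short, proteins misfold in the endoplasmic reticulum (ER), haem is low or double-stranded RNA is present. General translation then falls, while the mRNA of the transcription factor ATF4 is translated more, and ATF4 induces genes of amino acid supply and, under lasting stress, of cell death. The unfolded protein response adds the ER sensors IRE1, which splices Xbp1 mRNA, and ATF6, which is cleaved to a transcription factor, and both raise the ER chaperones. ATF4 and XBP1 protein are controlled largely at translation and splicing, steps that a count of chromatin RNA over the whole gene does not show.

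Promoter sequences are shown first because elements of the ATF6 and ATF4 arms can be searched in them. RefSeq promoter sequences of GRCm38.p6 (from 250 bases before to 50 bases after a start) were found for all 8 genes and searched on both strands for the ER stress response element (ERSE, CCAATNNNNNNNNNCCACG), which ATF6 uses, and for the C/EBP-ATF element of ATF4 targets (CARE, TGATGNAA). The ERSE letters were in 0.119% and the CARE letters in 3.97% of 32851 promoters. Hspa5 held 1 ERSE, starting 65 bases before its start, and Hsp90b1 held 2, the first starting 212 bases and the second, on the reverse strand, 107 bases before its start. Asns held a CARE 23 bases before its start, Chac1 a reverse CARE 193 bases before its start, and Trib3 a reverse CARE within the 50 transcribed bases. No match was found in these windows for Atf4, Ddit3 or Xbp1. The stretches below end at the base before the RefSeq start, 5′ to 3′ on the gene's strand, with the defined letters of the elements in capitals; they are chr2:34771940-34772089 (Hspa5, plus strand), chr10:86705445-86705694 (Hsp90b1, minus strand), chr6:7693210-7693359 (Asns, minus strand) and chr2:119350992-119351241 (Chac1, plus strand).
Hspa5: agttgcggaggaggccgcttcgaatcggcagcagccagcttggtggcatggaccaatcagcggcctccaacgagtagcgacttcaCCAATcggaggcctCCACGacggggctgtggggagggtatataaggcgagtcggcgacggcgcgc
Hsp90b1: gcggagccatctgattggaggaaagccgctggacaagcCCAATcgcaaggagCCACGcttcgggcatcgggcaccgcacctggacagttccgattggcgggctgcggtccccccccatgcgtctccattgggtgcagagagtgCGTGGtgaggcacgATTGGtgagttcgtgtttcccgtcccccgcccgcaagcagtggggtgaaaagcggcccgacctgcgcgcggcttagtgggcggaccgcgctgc
Asns: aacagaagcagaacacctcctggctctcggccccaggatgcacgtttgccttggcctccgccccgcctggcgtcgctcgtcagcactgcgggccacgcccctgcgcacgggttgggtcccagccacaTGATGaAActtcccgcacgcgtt
Chac1: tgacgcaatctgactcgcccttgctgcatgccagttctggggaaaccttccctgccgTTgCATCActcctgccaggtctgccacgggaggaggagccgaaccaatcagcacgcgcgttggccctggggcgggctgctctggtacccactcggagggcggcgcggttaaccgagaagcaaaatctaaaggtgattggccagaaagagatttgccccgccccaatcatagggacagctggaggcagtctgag

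The libraries held 14877384 to 24309806 counted fragments, of which 44.2 to 46.4% could be given to an allele. Replicates were not copies of each other, since counts of any pair gave a chi-square of 6.51 to 39.9 per gene, where sampling noise alone gives about 1. Xist was at 5319 to 7045 CPM (scaled counts) in every library, and the X that carries the inducible Xist gave a median of 11.6 to 18.4% of allelic fragments over 231 X-linked genes that the deposited ratio tables list for both lines. The sample descriptions of iXist-ChrX-Dom replicates 3 and 4 name day 1, where their titles name day 10. The median shares of these replicates, 14.8 and 18.4%, were the highest of the 7 libraries. All 8 embryonic stem cell markers were above 1 CPM in every library and summed to 1472 to 1899 CPM. The 9 feeder fibroblast markers summed to 71.1 to 93.7 CPM, with 6 at or above 1 CPM in every library and Lum at most at 0.204 CPM. Of the 5 neural precursor markers, Nes was at 10.4 to 25.7 CPM and Pax6 at 3.66 to 18.9 CPM, and Sox1 had no fragment. All 7 libraries divide into replicates 1 and 2 (4 libraries) and replicates 3 and 4 (3 libraries), 2 sample sets whose files were named by different schemes, and the labels state no batch. In iXist-ChrX-Cast, the files of replicates 1 and 2 also carry a clone name that differs from the one in their labels, which were followed here. If the name on the files is right, clone and set cannot be told apart within iXist-ChrX-Cast, and the line difference would cover more than 1 clone. Values within iXist-ChrX-Dom, which do not rest on these libraries, stand beside the set differences. There the sets divide as the described days do. If those descriptions are right, day and set cannot be told apart within iXist-ChrX-Dom.

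Levels are fragment counts scaled to a common library size (CPM) by the trimmed mean of M values (TMM), and gene positions are printed as in the mm10 count tables, whose left ends lie 1 base before those of RefSeq for 7 of the 8 genes. Per kb of counted length, introns included, the mean level over the 7 libraries was highest for Hspa5 at 44.1 CPM per kb (31.3 to 54.4), then Atf4 at 35.7 (28.7 to 42.4), Hsp90b1 at 21.4 (14.7 to 27.2) and Asns at 15.1 (13.2 to 17.5). Xbp1 was at 5.48 CPM per kb (4.19 to 7.19), and Ddit3 at 0.947 (0.612 to 1.32), Chac1 at 0.651 (0.434 to 0.792) and Trib3 at 0.586 (0.318 to 0.792) came last. Hspa5 and Atf4 overlapped over libraries, as did Hsp90b1 and Asns, and Ddit3, Chac1 and Trib3, whereas Atf4 lay above Hsp90b1, Asns above Xbp1 and Xbp1 above Ddit3 in every library. By this measure the chaperones, Atf4 and Asns were among the highest chromatin transcripts, above 97.6 to 99.3% of 15186 tested genes. Ddit3, Chac1 and Trib3 were above 43.8 to 53.9%. The exonic share of the counted length differs between genes, and its part in this order was not tested.

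Atf4, the transcription factor at the centre of the integrated stress response, lies on chromosome 15 (chr15:80255183-80257545, plus strand, 73.0% exonic by GENCODE M21). Its level was 81.3, 75.8, 85.6 and 67.7 CPM in the 4 iXist-ChrX-Dom replicates, in order, and 87.7, 100.3 and 91.7 CPM in the 3 iXist-ChrX-Cast replicates. All 3 iXist-ChrX-Cast libraries were above all 4 iXist-ChrX-Dom libraries, with means of 93.2 ± 6.43 (SD, n = 3) and 77.6 ± 7.70 CPM (SD, n = 4). The log2 difference, iXist-ChrX-Dom minus iXist-ChrX-Cast, was -0.27 ± 0.11 (SE) and did not pass the test over all genes (edgeR quasi-likelihood, adjusted p = 0.242). Between the sample sets Atf4 differed by -0.036 ± 0.094 on the log2 scale (replicates 3 and 4 minus replicates 1 and 2, adjusted p = 0.798).

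Ddit3 encodes CHOP, a transcription factor of the late stress response (chr10:127290792-127296288, plus strand, 15.9% exonic). It had only 60 to 145 fragments per library, and reads of Mars, which overlaps it on the other strand, were kept apart by stranded counting. Its level was 4.03, 4.06, 6.83 and 6.68 CPM in the 4 iXist-ChrX-Dom replicates, in order, and 4.22, 3.36 and 7.26 CPM in the 3 iXist-ChrX-Cast replicates. The 3 libraries of replicates 3 and 4 were all above the 4 libraries of replicates 1 and 2 in both lines, at 6.93 ± 0.302 (SD, n = 3) against 3.92 ± 0.380 CPM (SD, n = 4). Ddit3 rose 1.77-fold between the sets (log2 difference 0.82 ± 0.15, adjusted p = 0.00117) and did not differ detectably between the lines (0.11 ± 0.31, adjusted p = 0.897).

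Trib3, a pseudokinase that is induced by ATF4 and CHOP and restrains both, lies on chromosome 2 (chr2:152337424-152344060, minus strand, 30.5% exonic). It had 30 to 103 fragments per library, and its level was 3.46, 2.68, 4.48 and 5.26 CPM in iXist-ChrX-Dom and 2.11, 4.43 and 4.81 CPM in iXist-ChrX-Cast. Replicates 3 and 4 again lay above replicates 1 and 2, but iXist-ChrX-Cast replicate 2 of the lower set was close to iXist-ChrX-Dom replicate 3 of the higher one. The set difference of 0.61 ± 0.22 was close to the threshold (adjusted p = 0.0437) and was lost under DESeq2 (adjusted p = 0.0586) and in iXist-ChrX-Dom alone (0.67 ± 0.22, adjusted p = 0.0511).

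Chac1 and Asns are the metabolic targets of ATF4 in the group. Chac1, which degrades glutathione, lies at chr2:119351241-119354327 (plus strand, 50.9% exonic) and had 25 to 55 fragments per library. Its level was 2.41, 1.34, 1.87 and 2.25 CPM in iXist-ChrX-Dom and 1.76, 2.45 and 2.00 CPM in iXist-ChrX-Cast, and neither the lines (-0.085 ± 0.26, adjusted p = 0.912) nor the sets (0.051 ± 0.25, adjusted p = 0.898) could be told apart at this depth. Asns, asparagine synthetase, lies at chr6:7675170-7693182 (minus strand, 11.6% exonic) and had 3716 to 6778 fragments. Its level was 297.2, 252.6, 277.1 and 238.7 CPM in iXist-ChrX-Dom and 261.4, 314.4 and 259.2 CPM in iXist-ChrX-Cast. The lines and the sets overlapped for both genes, and for Asns the differences were -0.063 ± 0.11 between the lines (adjusted p = 0.840) and -0.12 ± 0.095 between the sets (adjusted p = 0.381).

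Among the unfolded protein response genes, Xbp1, the transcription factor activated by IRE1 splicing, lies on chromosome 11 (chr11:5520640-5525993, plus strand, 44.6% exonic). Its level was 28.6, 26.5, 33.1 and 30.2 CPM in iXist-ChrX-Dom and 22.4, 25.9 and 38.5 CPM in iXist-ChrX-Cast. The libraries of replicates 3 and 4 were all above those of replicates 1 and 2, and the set difference was 0.39 ± 0.11 (adjusted p = 0.0159). In iXist-ChrX-Dom alone it was 0.20 ± 0.12 and did not pass (adjusted p = 0.251), so the call rested on iXist-ChrX-Cast replicate 3, without which the difference was also 0.20 (adjusted p = 0.294).

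Hspa5 encodes BiP, the main ER HSP70 chaperone, which also holds the sensors inactive (chr2:34772089-34776529, plus strand, 58.9% exonic). Its level was 161.3, 139.0, 241.7 and 187.3 CPM in iXist-ChrX-Dom and 164.6, 239.9 and 237.6 CPM in iXist-ChrX-Cast. Within iXist-ChrX-Dom both libraries of replicates 3 and 4 were above both of replicates 1 and 2, whereas iXist-ChrX-Cast replicate 2 was as high as replicate 3. The set difference was 0.40 ± 0.13 (1.32-fold, adjusted p = 0.0241), and 0.51 ± 0.12 in iXist-ChrX-Dom alone (adjusted p = 0.0137). With each library left out in turn the set difference of Hspa5 ranged from 0.27 to 0.52. Without a line covariate it did not pass.

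Hsp90b1 encodes the ER HSP90 chaperone GRP94 (chr10:86690840-86705444, minus strand, 18.9% exonic), the member of the group with the largest difference between the lines. Its level was 250.6, 214.6, 347.5 and 294.5 CPM in iXist-ChrX-Dom and 307.6, 396.6 and 381.0 CPM in iXist-ChrX-Cast, and within each sample set iXist-ChrX-Cast was the higher. The pooled line difference was -0.39 ± 0.16 and missed the threshold (adjusted p = 0.247). With the replicate number as a block it was -0.44 ± 0.13 and passed (adjusted p = 0.0256), and within replicates 1 and 2 it was -0.59 ± 0.13 (adjusted p = 0.0120). The set difference was 0.33 ± 0.11 (adjusted p = 0.0364), 0.46 ± 0.11 in iXist-ChrX-Dom alone (adjusted p = 0.0122). With each library left out in turn the set difference of Hsp90b1 ranged from 0.23 to 0.47. Without a line covariate it did not pass.

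**Figure D1:**
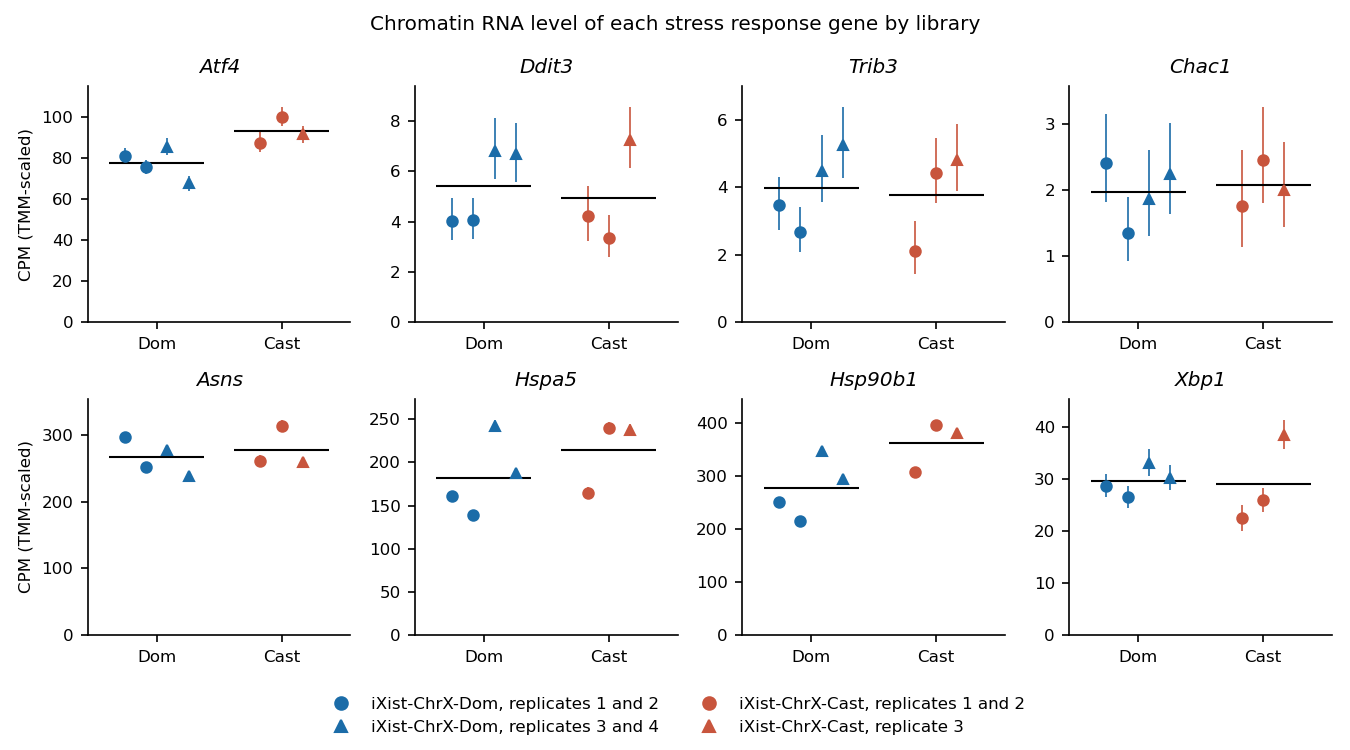
TMM-scaled CPM (vertical axes, linear, from 0) of each gene in the 4 iXist-ChrX-Dom and 3 iXist-ChrX-Cast libraries, where circles are replicates 1 and 2, triangles replicates 3 and 4, black bars line means and thin bars 95% Poisson intervals, which cover counting error only. For Ddit3 every triangle (6.68 to 7.26 CPM) is above every circle (3.36 to 4.22 CPM), and for Atf4 every iXist-ChrX-Cast library is above every iXist-ChrX-Dom library.

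Counted over the group, none of the 8 genes passed the test between the lines, and DESeq2 also called 0. Of all 15186 tested genes 2.92% were called in that comparison. Atf4 and Hsp90b1 had an unadjusted p under 0.05, a threshold for which the share of all genes was not taken. With the replicate block 1 of 8 was called, Hsp90b1, against 11.8% of all genes. Between the sample sets 5 of 8 were higher in replicates 3 and 4 and none was lower, against 16.3% and 14% of all genes; the median log2 difference of the 8 was 0.36 and that of all genes 0.0088. The sets did not overlap for 3 of the 8 (Ddit3, Trib3 and Xbp1), as for 29.4% of all genes, and the lines for 1 (Atf4), as for 16% of all genes. In iXist-ChrX-Dom alone, 2 libraries against 2, Ddit3, Hspa5 and Hsp90b1 were higher, against 10.4% of all genes. Without one library the count of called genes between the sets was 2 to 5, and it fell to 2 without iXist-ChrX-Dom replicate 2 or without iXist-ChrX-Dom replicate 3. Ddit3 was called without each library in turn, with a difference of 0.74 to 0.86.

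**Figure D2:**
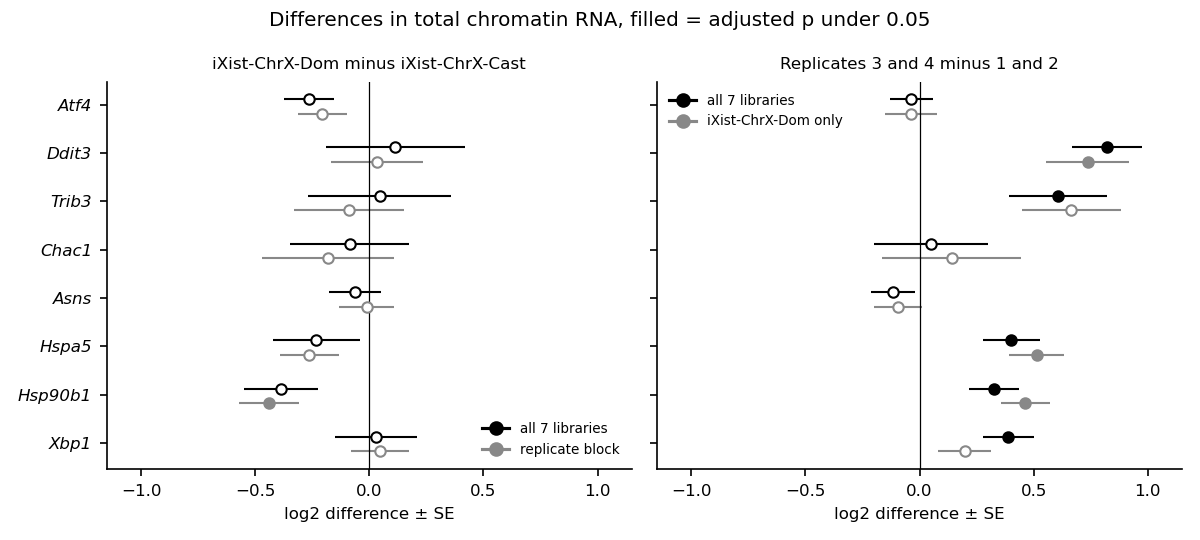
Log2 differences with 1 SE (horizontal axes) of each gene between the lines (left) and between the sample sets (right), from all 7 libraries (black) and from the fit with a replicate block or from iXist-ChrX-Dom alone (grey); filled points have an adjusted p under 0.05. Ddit3 is filled in both set fits at 0.82 and 0.74, and Hsp90b1 is the single filled point of the line panel, at -0.44 with the block.

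The set difference did not differ between the lines for any of the 8 genes by an interaction of line and set, a fit added after the data were seen (adjusted p of 0.460 to 0.999; 0.0132% of all genes were called). The smallest of these p-values was that of Xbp1, whose interaction was -0.47 ± 0.20. Only 1 iXist-ChrX-Cast library is in the second set, so this test had little to work with. Marker lists were also compared between the sets, where 16.3% of all genes were called higher and 14% lower. Embryonic stem cell markers summed to 1472 to 1899 CPM in replicates 1 and 2 and 1787 to 1854 CPM in replicates 3 and 4. Of these 8 markers 2 were called higher. Feeder markers summed to 71.1 to 90.8 and 71.1 to 93.7 CPM, with 1 of 8 tested called higher and 1 lower. Neural precursor markers summed to 20.2 to 44.6 and 15.1 to 23.6 CPM, with both tested markers lower. Primitive endoderm markers summed to 46.7 to 54.0 and 36.9 to 39.6 CPM, the only sums that did not overlap between the sets. Of their 3 tested markers 2 were called higher (Gata6 and Gata4) and 1 lower (Dab2, which makes up most of the sum). The part of the markers in the stress gene differences was not tested. Genes with a counted length of 2 to 20 kb, the range of the 8 genes, had a median set difference of 0.050, with 15.4% called higher. The median of the 8 genes was 0.36. The part of gene length in the set difference was not tested.

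The wider pathway was read from 4 lists. In the list of other ER chaperones, folding enzymes and degradation factors, 12 of 26 genes were higher in replicates 3 and 4, 1 was lower and 13 did not pass, with a median of 0.21, where 16.3% of all genes were higher, 14% lower and the median was 0.0088. The 4 with the largest difference were Herpud1, an ER membrane protein of the degradation complex (0.78 ± 0.14, adjusted p = 0.000841), Syvn1, its ubiquitin ligase (0.69 ± 0.15), Calr, the lectin chaperone calreticulin (0.64 ± 0.14), and Hyou1, an ER HSP70-like chaperone (0.60 ± 0.11). Herpud1 was at 8.95, 7.64, 14.3 and 13.7 CPM in iXist-ChrX-Dom and 4.99, 7.14 and 10.9 CPM in iXist-ChrX-Cast. The 1 lower gene, Dnajb9, an XBP1-induced co-chaperone of BiP that was picked out after its value was seen, changed by -0.41 ± 0.12 (adjusted p = 0.0176). For 10 of the 26 the sets did not overlap, as for 29.4% of all genes. In iXist-ChrX-Dom alone 5 of the 26 were higher, against 10.4% of all genes, and none was lower. Herpud1, Calr and Hyou1 passed there, while Syvn1 (adjusted p = 0.0853) and Dnajb9 (adjusted p = 0.167) did not. The count of higher genes was also 5 when replicate 3 of either line was left out. Between the lines 0 of 26 passed.

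Promoters were matched for 23 of these 26 genes, and 8 held the ERSE letters that Hspa5 and Hsp90b1 carry. Of the 8, Pdia6, Calr, Canx, Creld2 and Syvn1 were higher in replicates 3 and 4, and Dnajc3, Derl3 and Ero1lb did not pass. The median set difference was 0.30 for these 8 and 0.079 for the rest of the 23. Called higher were 5 of these 8 and 5 of the rest of the 23, where 16.3% of all genes were. Hyou1, Manf and Derl1 had no matched promoter and are in neither group. The CARE letters were in 1 of the 23, in Herpud1, which held no ERSE letters and had the largest set difference of the list. Only the 1 spacing of the ERSE given above was searched, and the presence of the letters is a description of these windows.

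In the list of stress sensors and eIF2 control genes, 4 of 17 were higher in replicates 3 and 4, where 16.3% of all genes were, with a median of 0.11. They were Atf6b (0.61 ± 0.13), a relative of ATF6, Ppp1r15a (0.39 ± 0.13), the stress-induced subunit that directs eIF2α dephosphorylation, Eif2b3 (0.37 ± 0.090), a subunit of the eIF2 exchange factor, and Mbtps1 (0.24 ± 0.086), the protease that cleaves ATF6. None was lower. In iXist-ChrX-Dom alone 1 of the 17 was higher, Eif2b3 (0.44 ± 0.10, adjusted p = 0.0116), and Atf6b (adjusted p = 0.0594), Ppp1r15a (adjusted p = 0.104) and Mbtps1 (adjusted p = 0.316) did not pass. Without iXist-ChrX-Cast replicate 3 the count was also 1, and without iXist-ChrX-Dom replicate 1 or 4 it was 2. Eif2ak3, which encodes the ER kinase PERK and was picked out after its value was seen, differed by 0.054 ± 0.087 between the sets and by -0.035 ± 0.10 between the lines.

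Among the other ATF4 targets called genes were few. Of 28 tested genes of the list (Fgf21 was too low to test) 1 was higher, Slc7a5 (0.39 ± 0.12), a transporter of large neutral amino acids, and 2 were lower, Slc7a11 (-0.78 ± 0.20), the cystine transporter, and Cth (-0.47 ± 0.090), an enzyme that makes cysteine, with a median of 0.030 over the list, against 16.3% higher and 14% lower among all genes. In iXist-ChrX-Dom alone Cth was lower (-0.34 ± 0.095, adjusted p = 0.0282), while Slc7a5 (0.086, adjusted p = 0.518) and Slc7a11 (-0.50, adjusted p = 0.140) did not pass, and no gene of the list was higher once replicate 2 or replicate 3 of iXist-ChrX-Cast was left out. Cth was at 67.0, 69.0, 55.4 and 52.1 CPM in iXist-ChrX-Dom and 83.3, 83.2 and 52.0 CPM in iXist-ChrX-Cast. Of the 12 cytosolic aminoacyl-tRNA synthetases 1 was higher, Cars (0.60 ± 0.080, adjusted p = 9.24e-05), and none lower, with a median of 0.065. The CARE letters were found for 6 of 25 genes with matched promoters in the ATF4 list and 5 of 8 in the synthetase list. Of all promoters 3.97% held them. That share is per promoter, whereas the listed genes had up to 3 promoters each.

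**Figure D3:**
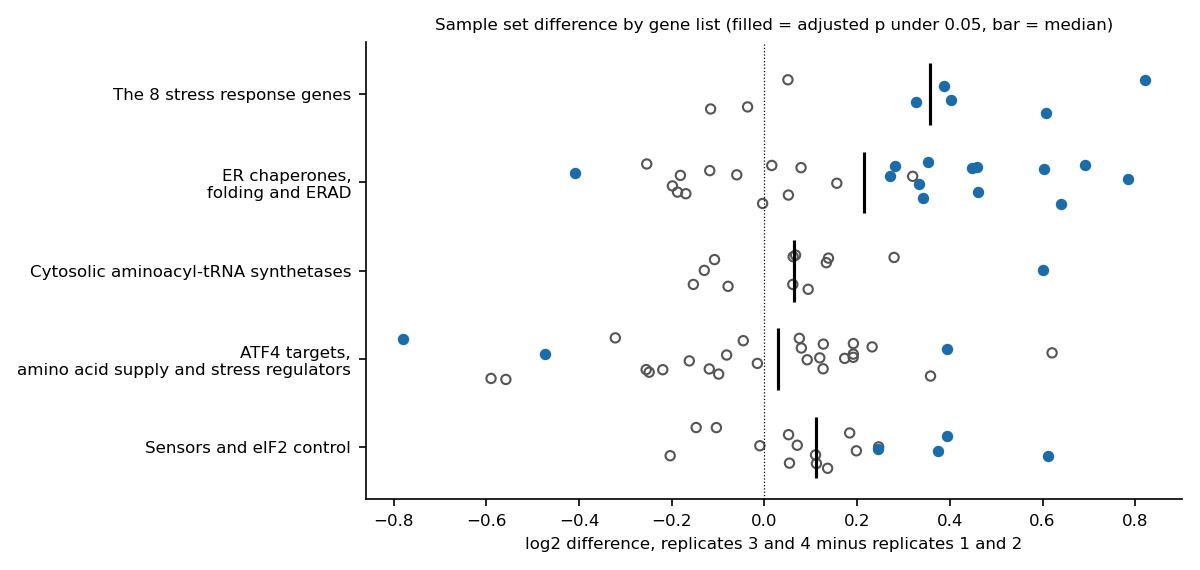
Log2 differences between replicates 3 and 4 and replicates 1 and 2 (horizontal axis) for each tested gene of the 4 lists and for the 8 stress response genes, with filled points for an adjusted p under 0.05, a black bar at each median and vertical scatter only to separate points. The medians are 0.36 for the 8 genes and 0.21 for the ER list, and 0.030 to 0.11 for the other lists.

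Between the lines few pathway genes passed. Ern1, which encodes IRE1, was higher in iXist-ChrX-Dom (0.60 ± 0.12, adjusted p = 0.0327; 43.1 to 49.0 against 25.6 to 32.2 CPM), and Eif2b4 (-0.61 ± 0.14) and Eif2b1 (-0.56 ± 0.13) were lower. Of the ATF4 targets Slc7a1, a cationic amino acid transporter (-0.70 ± 0.093, adjusted p = 0.00879), and Stc2, a secreted glycoprotein (-0.66 ± 0.14), were lower, and no synthetase passed. These are 3 of 17 and 2 of 28 genes, where 2.92% of all genes were called. The 3 calls among the sensors fell to 0 without any one library other than iXist-ChrX-Cast replicate 3. The 2 among the ATF4 targets became 1 without iXist-ChrX-Cast replicate 1 or any one iXist-ChrX-Dom library. Leaving out replicate 2 of iXist-ChrX-Cast gave 0, and leaving out its replicate 3 gave 5.

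With the replicate block, where 11.8% of all genes were called, the sensors had 2 higher and 4 lower genes in iXist-ChrX-Dom. Added to the 3 above were Mbtps1 (0.44 ± 0.12), Eif2ak1, which encodes the haem-regulated eIF2α kinase (-0.51 ± 0.12), and Atf6 (-0.35 ± 0.11). The ATF4 list gained Slc7a5 (0.46 ± 0.13) and the ER list Pdia4, a protein disulfide isomerase (-0.35 ± 0.12, adjusted p = 0.0426). Eif2b4, Eif2b1, Slc7a1 and Eif2ak1 lie on chromosome 5, where the median line difference of 964 genes, without the block, was -0.40. Mbtps1 and Slc7a5 lie on chromosome 8, where it was 0.35 over 806 genes. For Ern1 and Stc2 on chromosome 11 it was 0.17, and for Atf6 on chromosome 1 it was -0.15. On chromosomes 2, 6, 10 and 15, which hold all of the 8 genes but Xbp1, it was -0.015 to 0.033. These medians cover whole chromosomes, and those of the parts around single genes were not taken here.

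Alleles could be compared for 7 of the 8 genes, those with at least 10 allelic fragments in at least 6 of 7 libraries; Chac1 had 0 to 7. The median Cast share of allelic fragments over genes of chromosomes with balanced alleles was 46.3 to 46.9% per library. An allele share is read against that level. These were the autosomes other than 1, 5, 8, 12 and 14, which were left out for unequal shares in earlier results of these data. Asns was the 1 gene of these 7 whose share passed the test between the lines. Its Cast share was 58.5, 58.0, 58.0 and 60.1% in iXist-ChrX-Dom and 51.8, 50.9 and 51.6% in iXist-ChrX-Cast, from 2479 to 4370 allelic fragments per library. The lines did not overlap, with means of 58.7 ± 0.984% (SD, n = 4) and 51.4 ± 0.471% (SD, n = 3), and the log2 ratio of Cast to Dom differed by 0.42 ± 0.054 (limma, adjusted p = 3.48e-05), also with a replicate block (0.39 ± 0.056, adjusted p = 0.000293). Per allele, the Cast copy of Asns was at 106.1 ± 6.78 CPM in iXist-ChrX-Dom (SD, n = 4) and 94.4 ± 6.93 CPM in the other line (SD, n = 3), and the Dom copy at 74.9 ± 6.81 and 89.3 ± 8.28 CPM.

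Shares changed between the lines for 16.4% of 12932 tested genes, but for 36 of 633 genes (5.69%) on chromosome 6, where the median difference was -0.018. Of 18 tested genes within 3 Mb of Asns, a window set after the Asns value was seen, 2 passed, Pdk4 (0.55 ± 0.16, adjusted p = 0.0315) with a higher and Nxph1 (-0.59 ± 0.17, adjusted p = 0.0261) with a lower Cast share in iXist-ChrX-Dom, and the nearest genes on either side, Acn9 (-0.11 ± 0.17) and C1galt1 (0.097 ± 0.14), did not. None of the other 6 genes passed, and the differences closest to the threshold were those of Trib3 (0.50 ± 0.29, adjusted p = 0.343) and Atf4 (0.20 ± 0.12, adjusted p = 0.368).

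Within the cells of both lines, 5 of the 7 genes gave more Cast than Dom fragments relative to the library median and 1 gave fewer, where 36.8% and 26.6% of all genes did. The Cast share of Atf4 was 61.9, 58.9, 60.6 and 55.7% in iXist-ChrX-Dom and 55.1, 55.3 and 57.5% in iXist-ChrX-Cast, above the library median in all 7 libraries (log2 ratio 0.64 ± 0.058, adjusted p = 3.45e-07). Asns was at 0.49 ± 0.0275 (adjusted p = 2.07e-09). Hsp90b1 was the gene with more Dom fragments, with Cast shares of 41.9 to 46.0% (-0.16 ± 0.0375, adjusted p = 0.00165). Trib3 (0.50 ± 0.14), Xbp1 (0.29 ± 0.075) and Hspa5 (0.27 ± 0.061) passed only against the library median. Against equal shares Atf4 (0.44), Asns (0.29) and Hsp90b1 (-0.36) passed, and Trib3 (0.30), Xbp1 (0.091) and Hspa5 (0.076) did not. Ddit3, with 18 to 51 allelic fragments, gave 0.36 ± 0.19 and did not pass.

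**Figure D4:**
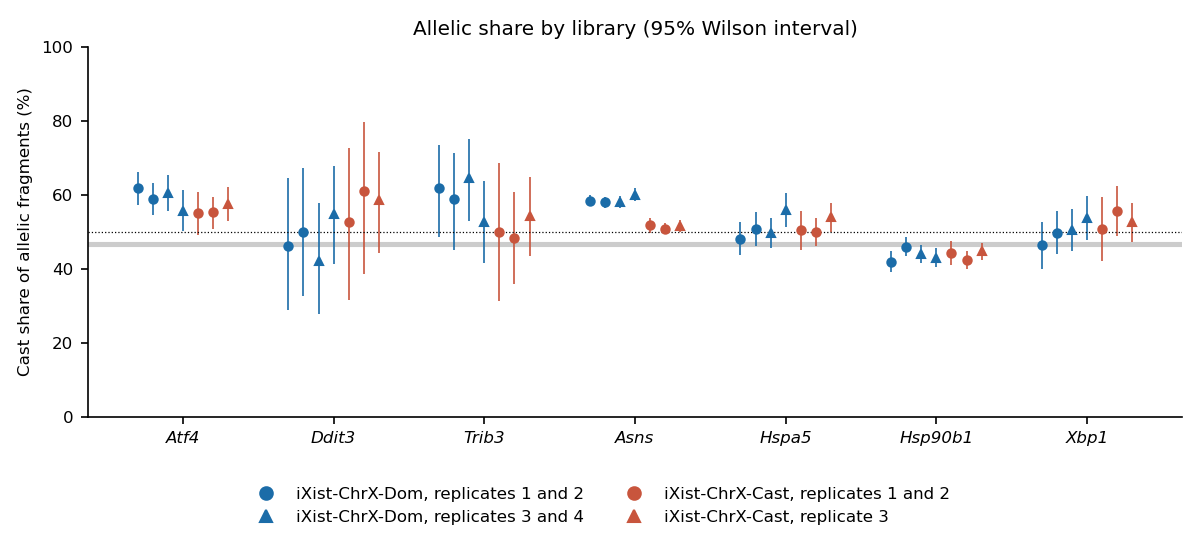
Cast share of allelic fragments in percent (vertical axis) of the 7 genes with enough allelic fragments, one point per library with its 95% Wilson interval, coloured by line, where the grey band is the range of library medians over balanced chromosomes (46.3 to 46.9%) and the dotted line marks 50%. Asns lies at 58.0 to 60.1% in iXist-ChrX-Dom and 50.9 to 51.8% in iXist-ChrX-Cast, and the wide intervals of Ddit3 and Trib3 reflect their few fragments.

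The 3 genes most like Atf4 in log2 CPM over the 7 libraries were Pja1, Cetn2 and Ppcs (Pearson r = 0.990, 0.988 and 0.988), and those most like Hspa5 were Hars, Rpn1 and Mapk15 (r = 0.990, 0.986 and 0.985). Rpn1 encodes a subunit of the ER oligosaccharyltransferase. Mapk15 was at only 0.325 to 0.612 CPM, the lowest level of these genes. Within the group Hsp90b1 was most like Hspa5 (r = 0.936), while Atf4 had r = 0.711 with Asns, 0.240 with Chac1, -0.022 with Trib3 and -0.30 with Ddit3. The 7 points share the 2 sample sets and the 2 lines, and the best 3 of the 15185 genes compared are high by selection, so these values only describe the libraries.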

How the data were processed

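Per the labels and the study's methods, the authors used Bowtie2 2.3.2 against ribosomal RNA and STAR 2.4.2a on mm10 with strain variants masked, split fragments by those variants and counted them per gene by strand with featureCounts 1.5.2. The deposited count columns are raw counts over whole transcribed regions, in total and by allele, and the authors' ratio tables hold allelic fractions, used only to check which allele column is Cast and to choose X-linked genes listed for both lines. Total counts were filtered (filterByExpr), TMM-scaled and tested with edgeR 4.0.16 (quasi-likelihood, design line, or line and sample set), SE being the log2 difference over the root of F. Allelic log2 ratios (0.5 added) of genes with 10 allelic fragments in 6 libraries were tested with limma 3.58.1. Benjamini-Hochberg adjustment covered all genes tested, two-sided, threshold 0.05. Scripts were tested on simulated data. DESeq2 1.42.0, other scalings, filters, covariates and left-out libraries were alternatives. Same-numbered libraries of both lines deviated together (correlations of 0.32, 0.27 and 0.45), so a replicate block was fitted, although libraries of the same sample set with other numbers correlated as highly.

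The genes and lists were chosen with earlier results of these data known. All 8 genes are named; from each list, called genes, at most 4 per comparison with the largest difference; and the 3 genes most like Atf4 and Hspa5. Labels do not say whether replicates were separate cultures, while the study calls those of iXist-ChrX-Dom replicate experiments. The p-values set a difference against the spread between these libraries, which may be technical. Wilson and Poisson intervals cover counting error only.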

Additional observations from a re-analysis of the deposited data

How the results depend on the processing

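Between the lines, the count of genes called (443) became 1094 with DESeq2, 1794 with the replicate block, 2398 with the sample set as a covariate and 1685 in replicates 1 and 2 alone, and 18 (without iXist-ChrX-Cast replicate 2) to 1206 (without iXist-ChrX-Cast replicate 3) without one library. Of the 8 genes, 0 became 1 with the block, the set covariate (-0.46, adjusted p = 0.00973) and replicates 1 and 2, each time Hsp90b1, and stayed 0 without any one library. Line differences that were not called changed sign for Trib3 with the block (-0.088), the set covariate (-0.066) and in replicates 1 and 2 (-0.13), for Xbp1 with the set covariate (-0.011), and without one library for Ddit3 (-0.10 to 0.51), Trib3 (-0.22 to 0.24), Chac1 (-0.20 to 0.067), Asns (-0.12 to 0.032) and Xbp1 (-0.12 to 0.29).

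Between the sets, genes called (4606) were 2739 in iXist-ChrX-Dom alone, 2355 without a line covariate and 2518 to 4501 without one library, lowest without iXist-ChrX-Cast replicate 3. Of the 8 genes 3 were called in iXist-ChrX-Dom alone, 1 (Ddit3) without a line covariate and 2 to 5 without one library; ER list genes higher were 5, 4 and 5 to 11. Without one library Atf4 ranged from -0.13 to 0.044 and Chac1 from -0.16 to 0.25. Trib3 was lost without each library but iXist-ChrX-Cast replicate 2. For allele shares, Hsp90b1, not called, turned to 0.0021 with edgeR on allelic counts and 0.011 with the block, and without one library ranged from -0.047 to 0.033 and Hspa5 from -0.11 to 0.055. Asns was called in every alternative. Cast against Dom calls fell from 6 to 3 against equal shares. The block changed no call other than that of Hsp90b1 among the 8 genes, and in the lists it added 3 sensors, 1 ATF4 target and 1 ER gene. Scaling by total fragments left every mean level within 1 SD. The cause of these changes was not tested. Depth limits Chac1, Trib3 and Ddit3 most.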
